A study of Caenorhabditis elegans with 2 samples.

Results

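The Myc and Max network of Caenorhabditis elegans comprises mml-1, mxl-2, mdl-1, mxl-1 and mxl-3, and the regions bound by the homeodomain protein IRX-1 at these 5 of 19973 protein-coding genes were examined in L1 larvae. The genes were chosen by name, as the Myc, Mad and Max relatives, with the IRX-1 regions of these lists already known, so the positions and scores below are a description and carry no test. For each gene, peak summits were taken in its body and in its promoter window, which reached from 1000 bp before the annotated gene start to 200 bp past it.

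Chromatin immunoprecipitation with sequencing (ChIP-seq) was performed on whole hermaphrodite larvae of strain OP536, genotype unc-119(tm4063) III; wgIs536. These animals stably carry a transgene for IRX-1 fused at its C-terminus to GFP and FLAG, and an antibody against GFP was used for the pull-down. Per the labels, they were synchronized as starved L1 larvae from bleached animals, and were collected 6 hours after synchronization. The series has 1 group of 2 biological replicates, and both carry the transgene and the unc-119 allele. IRX-1 was thus measured as a tagged protein made from an inserted transgene, and whole larvae do not show which cells a region was bound in.

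Proteins of this network carry a basic helix-loop-helix leucine zipper and bind DNA in pairs at the E-box CACGTG. MML-1, which resembles Myc and Mondo proteins, pairs with the Max-like MXL-2 and activates genes, whereas MDL-1, the Mad-like member, pairs with the Max-like MXL-1 and represses them. In worms the activating and the repressing pair have opposite effects on lifespan, and MXL-3 represses lysosomal lipase genes in fed animals, where HLH-30 activates them on fasting. IRX-1 belongs to the Iroquois homeodomain family, whose members are known to bind the core ACATGT.

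The regions came from 4 lists of called peaks on ce11, the build that the assembly WBcel235 names. The permissive list of the pooled replicates held 28191 regions with peak scores of 26.5 to 1185, the replicate 1 list held 30000 regions and the replicate 2 list 24949. The optimal list, which passed the authors' threshold on the irreproducible discovery rate (IDR), held 2445 regions with scores from 81.4 upwards and a median of 131, and these were the 2445 highest-scoring regions of the pooled list. Scores and ranks are the authors' peak scores and the order they give within one list (rank 1 is the highest), and scores from different lists are not on one scale. The sequencing depth is unknown, and a gene with no region is described as not listed.

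The DNA at the summits on which the description turns is shown first, because the E-box was present at some and missing at others. Each sequence spans 100 bp on either side of the summit, 5′ to 3′ on the strand of the gene, from the RefSeq sequence of WBcel235, and the one nearest the mdl-1 start is cut short at that start. Capitals mark the E-box CACGTG and the Iroquois core ACATGT, which read the same on both strands.
mml-1, 491 bp upstream (chrIII:7375122-7375322, minus strand): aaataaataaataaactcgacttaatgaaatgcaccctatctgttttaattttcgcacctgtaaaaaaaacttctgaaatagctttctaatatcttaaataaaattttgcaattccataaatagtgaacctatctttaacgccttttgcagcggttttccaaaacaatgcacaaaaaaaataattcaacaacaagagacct
mml-1, 1878 bp upstream (chrIII:7376509-7376709, minus strand): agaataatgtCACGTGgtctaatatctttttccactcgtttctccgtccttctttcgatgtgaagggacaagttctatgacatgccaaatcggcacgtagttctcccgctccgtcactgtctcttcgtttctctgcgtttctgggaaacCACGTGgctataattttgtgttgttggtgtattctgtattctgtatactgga
mxl-2, 487 bp upstream (chrIII:188518-188718, minus strand): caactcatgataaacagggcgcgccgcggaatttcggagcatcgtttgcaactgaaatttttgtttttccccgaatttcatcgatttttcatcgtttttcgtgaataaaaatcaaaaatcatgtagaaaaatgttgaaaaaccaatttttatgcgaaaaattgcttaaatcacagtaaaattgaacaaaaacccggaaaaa
mdl-1, 1214 bp upstream (chrX:6741037-6741237, plus strand): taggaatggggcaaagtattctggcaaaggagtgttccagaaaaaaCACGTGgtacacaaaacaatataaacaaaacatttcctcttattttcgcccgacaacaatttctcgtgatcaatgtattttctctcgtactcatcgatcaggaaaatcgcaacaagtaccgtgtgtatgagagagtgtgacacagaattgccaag
mdl-1, 61 bp upstream (chrX:6742190-6742350, plus strand): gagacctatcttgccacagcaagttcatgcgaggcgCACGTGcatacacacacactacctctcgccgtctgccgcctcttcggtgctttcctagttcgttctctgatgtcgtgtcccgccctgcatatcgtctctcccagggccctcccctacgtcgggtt
mdl-1, 710 bp downstream (chrX:6742961-6743161, plus strand): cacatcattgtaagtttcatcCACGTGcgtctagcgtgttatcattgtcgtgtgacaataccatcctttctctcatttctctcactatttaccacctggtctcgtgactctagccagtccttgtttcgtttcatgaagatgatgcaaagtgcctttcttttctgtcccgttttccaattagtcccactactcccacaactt
mdl-1, 1671 bp downstream (chrX:6743922-6744122, plus strand): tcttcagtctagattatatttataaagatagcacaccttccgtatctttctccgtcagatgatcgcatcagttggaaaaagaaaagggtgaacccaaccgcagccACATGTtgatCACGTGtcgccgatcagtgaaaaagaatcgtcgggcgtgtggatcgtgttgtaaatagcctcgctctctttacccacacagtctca
mxl-3, 471 bp upstream (chrX:13351175-13351375, minus strand): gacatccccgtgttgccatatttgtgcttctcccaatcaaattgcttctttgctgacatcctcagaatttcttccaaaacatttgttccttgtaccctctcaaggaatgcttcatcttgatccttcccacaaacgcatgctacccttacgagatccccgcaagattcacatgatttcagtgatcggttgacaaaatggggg

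IRX-1 regions were spread unevenly over the 5 genes. mdl-1 held 4 optimal regions in and around a short gene, and some of these lie nearer to the start of a non-coding RNA gene. mxl-2 held 1 in its promoter and mml-1 held 1 farther upstream, beyond its promoter window. mxl-3 had a region in its promoter window just below the optimal threshold, nearer to the starts of non-coding RNA genes. mxl-1 had no region in the pooled list. An optimal summit lay in the promoter window of 2 of the 5 genes, mdl-1 and mxl-2, where 9.6% of all protein-coding genes had one. A pooled summit lay in the window of 4 of the 5, all but mxl-1, beside 38.1% of all genes, and the same 4 genes had a summit of each replicate list there, beside 25.6% of all genes. Since the genes were chosen with these lists known, nothing is read from these counts. When the 2445 highest regions of a single replicate replaced the optimal list, the count of 2 became 1 (mdl-1) from replicate 2, without replicate 1, and 3 (with mxl-3 added) from replicate 1, without replicate 2.

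**Figure D1:**
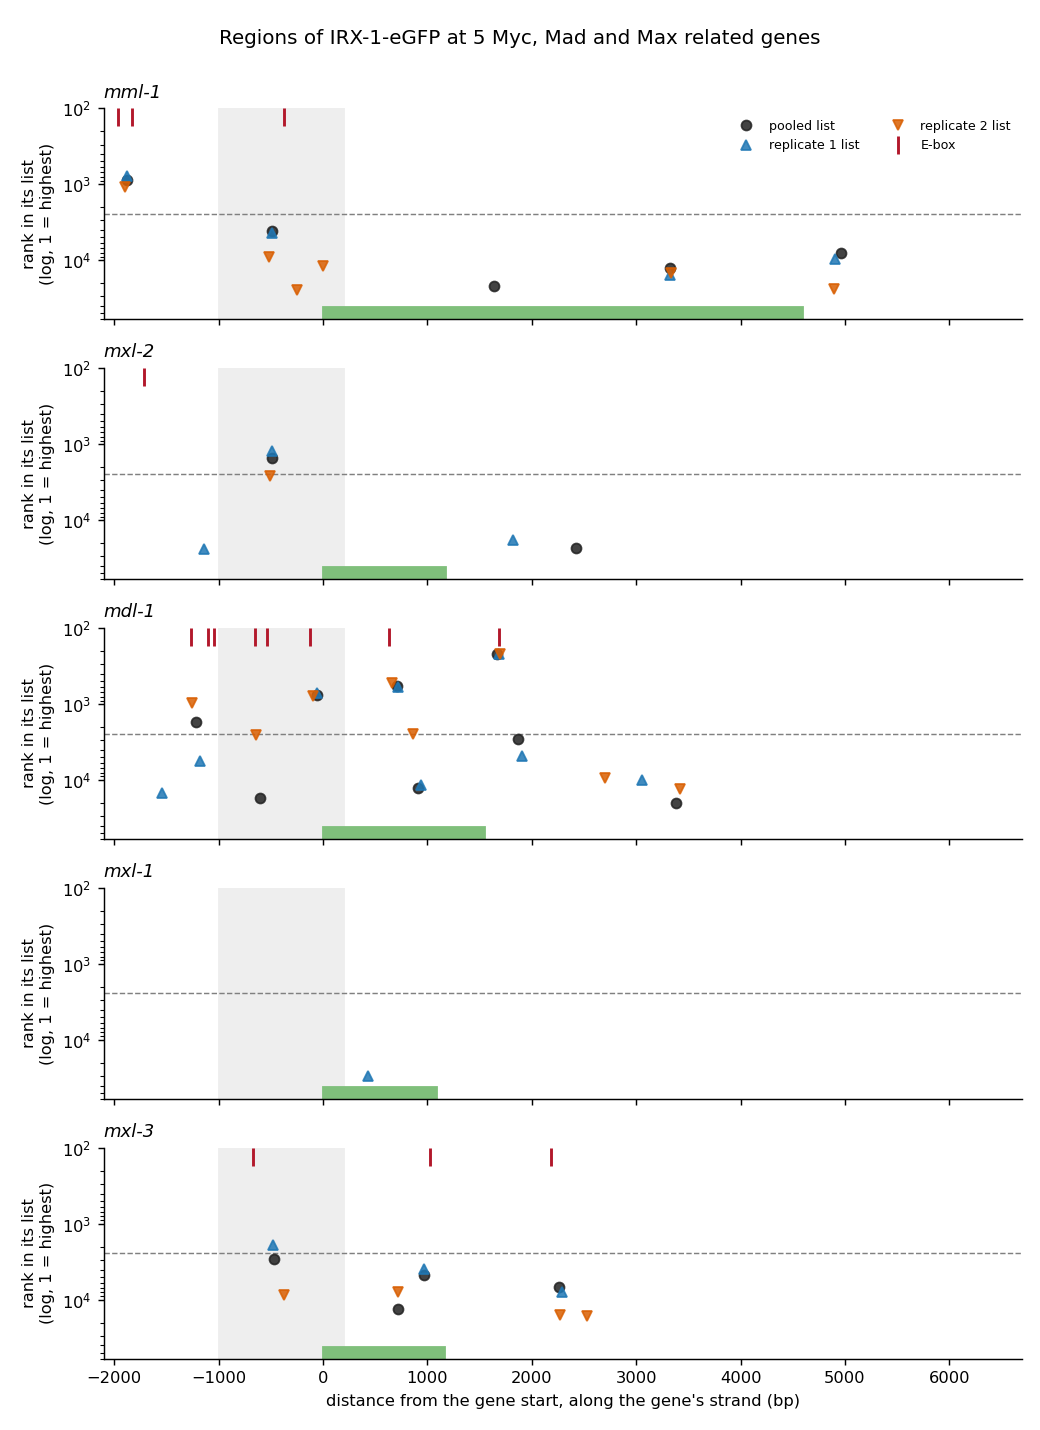
Summits of the pooled and replicate lists from 2000 bp before to 2000 bp after each gene, by distance from the gene start in bp (x axis) and rank in the summit's own list (y axis, log scale with rank 1 at the top), with the promoter window in grey, the gene body in green, E-boxes CACGTG as red ticks and a dashed line at rank 2445. mdl-1 carries 4 pooled summits above the line, between 1214 bp upstream and 1671 bp downstream, and mxl-1 has 1 replicate 1 summit near the bottom.

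**Figure D2:**
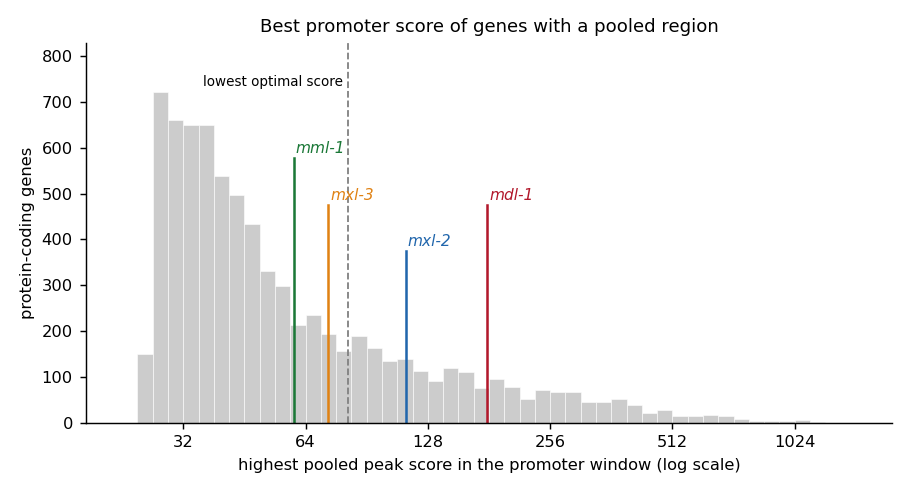
Highest pooled peak score in the promoter window (log scale) on the x axis and number of protein-coding genes on the y axis, for the 7614 genes with a pooled summit there, with the 4 network genes as lines. mdl-1 at 179 and mxl-2 at 113 lie above the lowest optimal score of 81.4, and mxl-3 at 72.8 and mml-1 at 59.8 lie below it.

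By promoter score the order was mdl-1, mxl-2, mxl-3, mml-1. Among the 7614 genes with a pooled promoter summit, whose median score was 44.8, mdl-1 stood at position 753 and mxl-2 at position 1320. mxl-3 stood at 2129 and mml-1 at 2638. Among the 1917 genes with an optimal promoter summit, whose median was 149, mdl-1 was above the median and mxl-2 below it. Each score is a single value from pooled reads, so the difference between neighbours in this order has no replicate error. In the replicate lists the order of mdl-1 and mxl-2 was the same, with mdl-1 at ranks 716 and 792 and mxl-2 at ranks 1250 and 2627.

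Of the activating pair, mml-1 (WBGene00003378, chromosome III, 7370130 to 7374731, minus strand) had its optimal region outside the promoter window. That region, III 7376404 to 7376813, had its summit 1878 bp upstream of the gene in intergenic DNA, with a peak score of 163 and pooled rank 877. Its score was 98.2 in replicate 1, at rank 790, and 64.1 in replicate 2, at rank 1091, within the first 2445 of each list. The next gene upstream, T20B12.7, lies on the same strand, and the mml-1 start is the nearest protein-coding start to this summit.

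Inside the mml-1 promoter window the strongest pooled summit was 491 bp upstream (III 7375017 to 7375426), with a score of 59.8 and pooled rank 4169. Its score was 35.0 in replicate 1, at rank 4359, and 21.8 in replicate 2, at rank 8977, so neither replicate placed it among its first 2445. Within the gene body, weaker pooled summits in coding exons had scores of 37.7 and 30.1. The mml-1 locus therefore had a far stronger IRX-1 region upstream than at its start.

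mxl-2 (WBGene00003510, chromosome III, 186949 to 188131, minus strand), the Max-like partner of mml-1, had 1 optimal region, III 188413 to 188822. Its summit was 487 bp upstream with a score of 113 and pooled rank 1504. Its score was 72.7 in replicate 1, at rank 1250, and 37.2 in replicate 2, at rank 2627, just past the first 2445. The same summit lies 220 bp upstream of ubc-20, a ubiquitin-conjugating enzyme gene that runs in the opposite direction, and is nearer to that start. The 706 bp between the pair of genes hold this 1 optimal region, and the region cannot be given to either gene from position.

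Of the repressing pair, mdl-1 (WBGene00003163, chromosome X, 6742351 to 6743899, plus strand), the Mad-like gene, had the most IRX-1 regions. Its strongest region, X 6743888 to 6744124, had a score of 364 and pooled rank 221, with its summit 1671 bp downstream of the gene start. That summit lies just past the annotated end of mdl-1, in an exon of the non-coding RNA gene R03E9.10 on the other strand. It is also 250 bp upstream of the start of the non-coding RNA gene R03E9.7, which is nearer than the mdl-1 start. Position therefore does not give this region to mdl-1. Its score was 201 in replicate 1 and 166 in replicate 2, and the ranks there, 219 and 217, were nearly the same.

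The next region, X 6742856 to 6743265, lay inside mdl-1 in an intron, 710 bp downstream of the start. It had a score of 214 and pooled rank 584, and the replicates ranked it 592 (score 117.5) and 529 (score 103). It made mdl-1 the 1 member of 5 with an optimal summit in its body, where 2.72% of all genes had one. The promoter region, X 6742085 to 6742494, had its summit 61 bp upstream with a score of 179, pooled rank 760 and replicate ranks of 716 and 792.

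The fourth region, X 6740932 to 6741341, was 1214 bp upstream and therefore outside the promoter window, with a score of 102 and pooled rank 1741. Its summit was 185 bp upstream of the start of the non-coding RNA gene R03E9.9, which is nearer than the mdl-1 start. Position does not give this region to mdl-1 either. Here the replicates parted, with a score of 31.4 and rank 5621 in replicate 1 and a score of 69.4 and rank 972 in replicate 2. The log2 ratio of the replicate 2 rank to the replicate 1 rank was −2.53. Of the optimal regions found in both replicates, whatever their rank, 0.577% had a ratio as low or lower. For the other 3 mdl-1 regions that ratio was between −0.16 and 0.15, close to the median of 0.03 over 2426 optimal regions. The 4 regions do not overlap one another.

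Just below the optimal threshold at the mdl-1 locus lay a region 1871 bp downstream (X 6744017 to 6744426), with a score of 73.1, which overlaps the strongest one. It ranked 4891 in replicate 1, and no replicate 2 region held its summit. A further summit 607 bp upstream, in the promoter window, had a pooled rank of 17382, a replicate 2 rank of 2556 and no replicate 1 region. The weakest optimal mdl-1 score, 102, and this 73.1 stand on either side of the threshold of 81.4.

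mxl-1 (WBGene00003509, chromosome V, 11244839 to 11245926, plus strand), the Max-like partner of mdl-1, had no region in the optimal, pooled or replicate 2 lists. In replicate 1 an intronic region 429 bp downstream of its start had a score of 15.35 and stood at rank 29997 of 30000. mxl-1 starts 112 bp after the end of pgap-1 on the same strand, and pgap-1 had no pooled promoter summit either. The repressing pair thus held both the gene with the most optimal regions around it and the only gene with no pooled region.

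mxl-3 (WBGene00003511, chromosome X, 13349639 to 13350804, minus strand) had no optimal region in its window or body. Its strongest promoter region, X 13351070 to 13351479, had a score of 72.8, pooled rank 2935 and a deposited −log10 q of 1.52, where the lowest in the optimal list was 2.23. The summit, 471 bp upstream, lies in an exon of the non-coding RNA gene C49F8.5, 165 bp from its start. It is also 230 bp upstream of the start of the non-coding RNA gene C49F8.9. Both starts are nearer than the mxl-3 start, so position does not give this region to mxl-3. The score of the region was 54.6 in replicate 1, at rank 1898 and so inside the first 2445. In replicate 2 the score was 22.0, at rank 8735, a log2 rank ratio of 2.20. A second region, over the 3′ UTR 964 bp downstream, had a score of 56.1, replicate 1 rank 3902 and no replicate 2 region. The nearest optimal regions lay farther upstream, with mxl-3 as their nearest protein-coding gene start. They were 2879, 4124 and 5764 bp upstream, with scores of 146, 83.3 and 87.6.

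**Figure D3:**
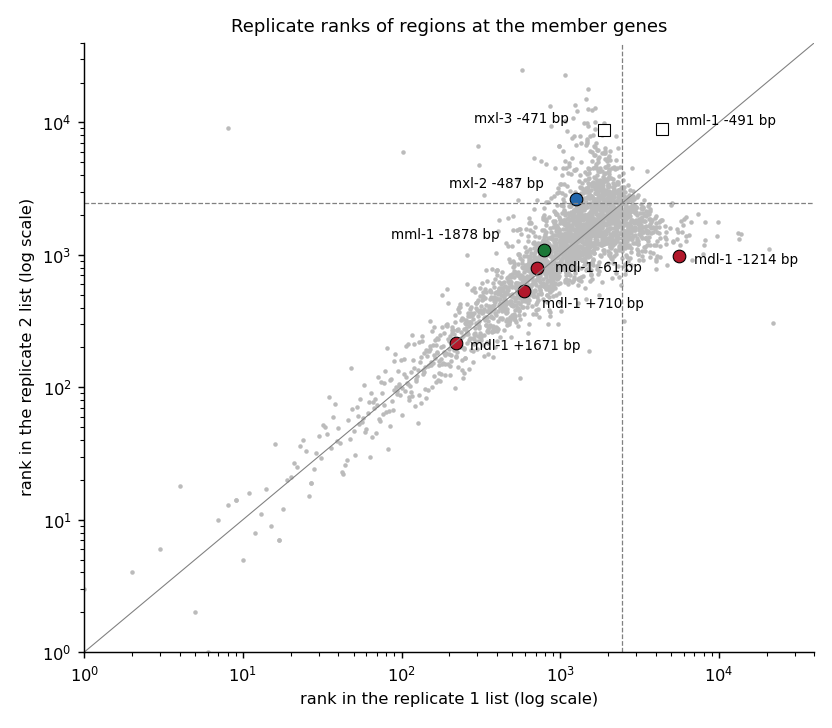
Rank in the replicate 1 list (x axis, log scale) against rank in the replicate 2 list (y axis, log scale) for optimal regions found in both lists (grey) and for the regions at the member genes, with filled circles for optimal regions, open squares for the 2 others and dashed lines at rank 2445. The mdl-1 region 1671 bp downstream lies on the diagonal at ranks 219 and 217, and the mdl-1 region 1214 bp upstream and the mxl-3 region lie far from it on opposite sides.

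Replicate ranks were set against those of all optimal regions. Over the 2426 optimal regions found in both replicate lists, the log2 rank ratio ran from −1.25 at the 5th percentile to 1.46 at the 95th. The mdl-1 region 1214 bp upstream fell below that range, and the mxl-3 promoter region, which is not optimal, lay above it. The range covers optimal regions of all ranks, and none was taken for regions of similar rank. Whether these ratios are unusual at their rank was not tested. The mxl-2 region had a ratio of 1.07 and the upstream mml-1 region one of 0.47, both within the range.

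The density of regions at mdl-1 was compared with that at other genes, in a span of the gene and 2000 bp on either side, a width chosen after the mdl-1 values were seen. mdl-1 held 4 optimal summits there (3 from replicate 1 by itself, 4 from replicate 2), mml-1 and mxl-2 held 1 each, and mxl-1 and mxl-3 held none. At least 1 optimal summit lay in the span of 17.9% of all protein-coding genes, and 4 or more in that of 24 genes, which is 0.12%. Among the 6208 genes of 1000 to 2000 bp in length, 3 had 4 or more, namely mdl-1, lgg-2 and T28F4.5. lin-14, a gene of 20312 bp, had the most of all genes with 8, followed by swah-1 and zfp-1 with 7 each. hlh-30, the MXL-3 antagonist, at 20159 bp, had 6, as did mnk-1 and pkg-2. These counts were not adjusted for gene length.

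The mdl-1 locus was also rich in E-boxes. Its span of 5.549 kb held 8 copies of CACGTG, or 1.44 per kb, beside a median of 0.160 per kb over all genes, and 12 of 19973 genes (0.0601%) had as many per kb. mxl-3 followed with 3 copies (0.581 per kb) and mml-1 with 3 (0.349 per kb). mxl-2 had 1, and mxl-1 had none, as did 35.4% of genes. The order of the genes by E-box density was thus mdl-1, mxl-3, mml-1, mxl-2, mxl-1. The core ACATGT was less one-sided, with 4 copies each at mdl-1 and mxl-3, 3 at mxl-1, 1 at mml-1 and none at mxl-2. Per kb this was 0.774 at mxl-3, 0.721 at mdl-1, 0.590 at mxl-1 and 0.116 at mml-1, beside a median of 0.210. As many per kb were found at 2.84%, 3.85%, 8.46% and 75.15% of genes, in that order. Thus mxl-1, with no pooled region, lay above the median, as did mdl-1 and mxl-3, which had pooled regions. Below it lay mxl-2 and mml-1, each with an optimal region. Any relation of this density to the regions was not tested.

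**Figure D4:**
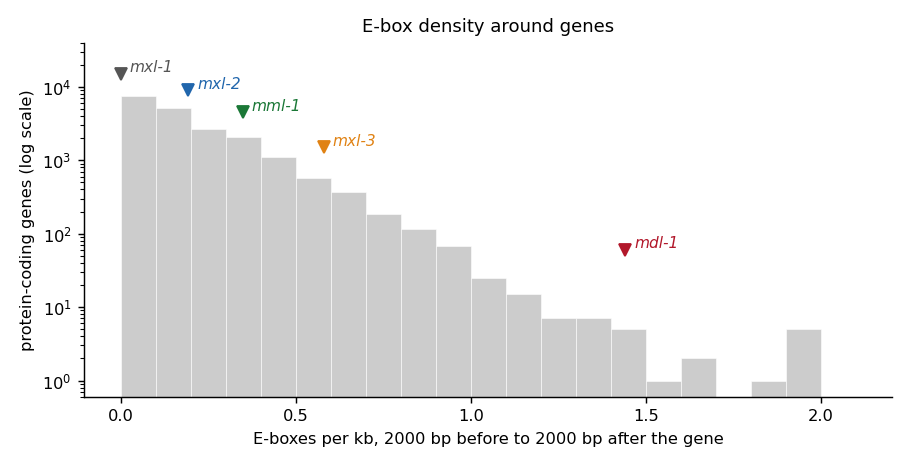
Number of protein-coding genes (y axis, log scale) by E-box CACGTG copies per kb of the gene and 2000 bp on either side (x axis), with the 5 genes marked. mdl-1, at 1.44 per kb, lies in the far right tail and mxl-1 is at 0.

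The main distance for motifs was 50 bp from the summit. At that distance, 0 genes had a CACGTG at their strongest pooled summit in the promoter window or body. The highest mdl-1 summit, past the gene end, is outside both. Of the 6 optimal regions at the members, 1 had a CACGTG within 50 bp and 5 within 100 bp. The 5 were all 4 optimal mdl-1 regions, as marked in the sequences above, and the upstream mml-1 region, which had 2. The optimal mxl-2 region had none. Among all 2445 optimal regions 8.63% had one within 100 bp, and 4.09% of the 25137 pooled regions that overlap no optimal region did. Within 50 bp the shares were 5.32% and 2.28%, and at that distance 1 of the 4 optimal mdl-1 regions, the strongest, qualified. Regions that are not optimal carried the E-box too. The mdl-1 summit 607 bp upstream had one within 50 bp, and the mxl-3 summits 964 and 2264 bp downstream had one 64 and 84 bp away. A motif match here is a string of letters, not evidence of a bound factor.

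When each optimal region was given to the nearest protein-coding gene start, 11 regions fell to the network genes, a count not taken for other genes. Of these 11, 8 had a CACGTG within 100 bp of the summit, beside 8.63% of all 2445 optimal regions. mdl-1 had 5 of its 7 regions with one, mxl-3 had 2 of its 3 and mml-1 had its single region. The additional mdl-1 regions lay 3144 bp upstream and, inside the gene abts-4, 6975 and 7952 bp downstream of the mdl-1 start, with scores of 153, 86.9 and 328. Regions of one locus share their surroundings and are not independent of each other. The optimal mxl-2 region, with no CACGTG within 100 bp, went to ubc-20 under this rule and is not among the 11. The mdl-1 span held 1.44 copies of CACGTG per kb, beside a median of 0.16 over all genes. No count within 50 bp was taken for the 11 regions, and nothing is read from the 8.

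At the strongest mdl-1 summit the E-box and the Iroquois core stood together, with the centre of the core 7 bp and that of the E-box 17 bp from the summit. The core there overlaps a CACATG, which is a CANNTG form of the E-box. Within 50 bp of the summit both CACGTG and ACATGT occurred at 4 of the 2445 optimal regions (0.164%), and this mdl-1 region was 1 of the 4. The weak mdl-1 summit 607 bp upstream, at pooled rank 17382 and not optimal, also had both within 50 bp. ACATGT by itself occurred within 50 bp of 3.35% of optimal summits and of 2.56% of pooled summits whose regions overlap no optimal region. The repeat GAGAGA, on either strand, occurred within 50 bp of 3 mdl-1 summits, those 1214 and 61 bp upstream and 710 bp downstream. It occurred at 26.5% of all optimal summits and at 7.49% of the pooled regions outside the optimal list.

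Base composition set the promoter regions of mdl-1 and mxl-2 apart. Within 50 bp of the summit, the mdl-1 promoter region had a GC content of 61.4%, and 98.5% of optimal regions had as much or less. The mxl-2 region had 24.75%, and 1.1% of optimal regions had as little. The median optimal region had 46.5%, and the median pooled region outside the list 34.65%. The upstream mml-1 region had 49.5% and the mxl-3 promoter region 43.6%, both near the optimal median.

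Rank percentiles in the pooled and replicate lists were compared for genes with an optimal promoter summit and any promoter summit in both replicate lists. The genes closest to mdl-1 were K12H4.5, C50F4.4 and Y82E9BR.3, with percentile differences, summed over the lists, of 0.172, 0.173 and 0.226. For mxl-2 they were ubc-20, which shares its summit and so has a difference of 0, Y55F3BR.1 with 0.243 and npp-12 with 0.590. The likeness is in rank over 3 lists and 1907 genes.

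Other genes of the pathway were also listed. These were 25 partners or antagonists, cofactors, lipases and nutrient or nucleolar genes. Of the 25, 5 had an optimal promoter summit (20.0%, beside 9.6% of all genes) and 12 a pooled one (beside 38.1% of all genes). The median pooled score was 76.5, beside 44.8 for all genes with one. The lists were chosen with earlier results known, so these shares are a description. fib-1, the gene of the nucleolar protein fibrillarin, had the highest score of the 5, 290. ruvb-2 and mys-1, which encode a helicase and an acetyltransferase of chromatin complexes that Myc is known to recruit in mammals, had 272 and 214. hlh-11, a basic helix-loop-helix gene, had 193, and daf-16, the FOXO factor of insulin signalling, had 104. None of the 5 lysosomal lipase genes had a pooled promoter summit, although lipl-4 had 1 optimal summit in its body, with a score of 100.3.

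An optimal summit in the gene body was found at 5 of the 25 pathway genes, beside 2.72% of all genes. hlh-30 had 6 such summits, with scores of 83.0 to 161, daf-2 had 3, daf-16 and ncl-1 had 2 each and lipl-4 had 1. The first 4 of these genes are long, at 20159, 46333, 26206 and 18377 bp in that order, and the counts were not adjusted for length. Of 36 other basic helix-loop-helix genes, 3 had an optimal promoter summit (8.33%), beside 9.6% of all genes. They were hlh-11, aha-1 with 123 and hif-1 with 82.2, just above the threshold, which ranked 6066 in replicate 1 and 1871 in replicate 2. hlh-11, hlh-30 and sbp-1 belong to both lists.

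**Figure D5:**
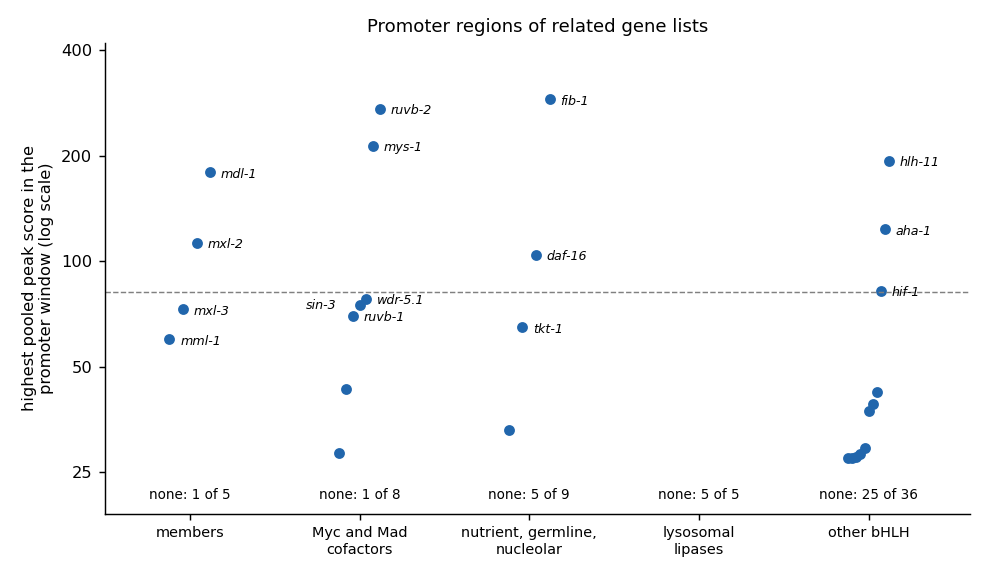
Highest pooled peak score in the promoter window (log scale) for the network members and the related gene lists, with the number of genes that have none and a dashed line at the lowest optimal score of 81.4. The basic helix-loop-helix genes of the pathway list, hlh-11, hlh-30 and sbp-1, are drawn among the other bHLH genes, and fib-1 at 290 is the highest point shown.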

How the data were processed

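Peak lists of IRX-1-eGFP ChIP-seq were analysed, 1 group of 2 biological replicates. The authors deposited lists, not reads, on ce11, made from alignments and a control file, per the file headers in the deposited notes. Each deposited region carries a peak score of unstated formula, a −log10 q value and a summit offset. The identity of the aligner and peak caller is not given in the sources used here, nor is the IDR cutoff. The ce10 lists were not used. Read totals were not used, so depth is unknown.

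Summits were set against Ensembl release 115 genes and RefSeq sequence of WBcel235, with coordinates 1-based, in Python 3.11.15 with pandas 2.3.3, numpy 2.4.6 and matplotlib 3.10.9. A replicate rank is that of the replicate region with the highest score that holds the pooled summit. The counting was checked on simulated data. No p-value was computed, since there is 1 group. The members and lists were chosen with earlier results of these data known. The wide span, the mdl-1 locus count and the E-box density were chosen after values were seen. So was the count of mdl-1 regions with a CACGTG within 100 bp. Named were the 5 members and genes with the nearest starts to their summits, though not every gene nearest on either side of a summit. Also named were the 3 genes closest in rank to each member with an optimal promoter summit, and pathway or bHLH genes with one. The genes lgg-2, T28F4.5, lin-14, swah-1, zfp-1, mnk-1 and pkg-2 were named after their values were seen. So were the lipase lipl-4 and the body summits of hlh-30, daf-2 and ncl-1. Alternatives changed the window, the threshold, the gene assignment and the replicate used.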

Additional observations from a re-analysis of the deposited data

How the results depend on the processing

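Of 47 alternative values, 37 stayed within 1.5 times of the reported value and 10 moved. The count of network genes with an optimal promoter summit, 2, was 1 (mdl-1) with the 1222 highest-scoring optimal regions, and ran from 1 to 3 when the 2445 highest regions of a single replicate replaced the optimal list. It was 1 without replicate 1 and 3, with mxl-3 added, without replicate 2. With the window widened to 2000 bp upstream and 500 bp downstream mml-1 joined, and its highest promoter score went from 59.8 to 163, because the wider window takes in the summit 1878 bp upstream. By nearest gene start, 3 network genes were counted, with mxl-2 lost to ubc-20, and 9 pathway and 6 other bHLH genes. With the 1222 highest-scoring regions 1 other bHLH gene was left. The share of all protein-coding genes under each changed rule was not computed, so nothing is read from these changes in count. Among the first 2445 regions of each replicate, 1 gene (mdl-1) rather than 4 had its strongest promoter summit in both. Taking for each gene its strongest pooled summit in the promoter window or body (for mdl-1 the one 710 bp downstream, not the higher one past the gene end), a CACGTG lay within 50 bp at 0 genes, within 100 bp at 1 (mdl-1), and any CANNTG within 50 bp at 3. Of the 4 optimal mdl-1 regions, 1 had a CACGTG within 50 bp. The 4 optimal mdl-1 summits became 3 without replicate 2, when the one 1214 bp upstream dropped out; these mdl-1 alternatives were chosen after seeing the data. Single-gene scores rest on pooled reads and have no replicate error. No paired analysis was possible because there is 1 group.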
